A study of Homo sapiens with 2 samples.

Results

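The 6 cyclin-dependent kinase (CDK) inhibitor genes CDKN1B, CDKN1C, CDKN2A, CDKN2B, CDKN2C and CDKN2D, the D-type cyclin genes CCND1, CCND2 and CCND3, and the kinase gene CDK6 were followed in Ca9-22 cells, a line from a human gingival carcinoma. These 10 genes were chosen by name as a functional family while their ratios on these arrays were already known, so all their levels and ratios below are a description with no test. Their values come from the probe sets whose platform annotation gives 1 of these symbols alone. These were 28 of 41091 probe sets with a single symbol, and they covered 9 of the 10 genes. The study compared cells stably transduced with a RUNX2 vector, after blasticidin selection, against cells given the empty vector and selected in the same way. The labels do not say whether either population was a clone or a pool, what promoter drove RUNX2, or at what passage RNA was taken. One array was hybridised per group (2 arrays in all), so no value has a replicate, and precision is limited by this number.

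Cells leave G1 when cyclin D, bound to CDK4 or CDK6, phosphorylates the retinoblastoma protein and its relatives, which frees E2F factors to switch on genes for DNA replication. Inhibitors of the INK4 family (CDKN2A to CDKN2D) bind CDK4 and CDK6 and keep cyclin D away. Those of the CIP/KIP family (CDKN1A, CDKN1B and CDKN1C) bind cyclin-CDK complexes and mainly block CDK2. In squamous carcinomas of the mouth, loss of CDKN2A and gain of CCND1 are among the best known lesions of this pathway.

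In the array labelled RUNX2, each of the 4 measured inhibitors was lower than in the empty vector array and each of the 3 measured genes on the cyclin side was higher, when every gene was read from its brightest probe set. The inhibitors had log2 ratios of -1.23 for CDKN2B, -0.59 for CDKN1B, -0.49 for CDKN2A and -0.36 for CDKN2D. The D-type cyclins and the kinase had 0.68 for CCND1, 0.66 for CDK6 and 0.60 for CCND3. Over all 12729 measured genes, 42.7% lay above 0 and 57.3% below. CDKN1C and CCND2 lay below the floor in every probe set on both arrays, and CDKN2C was not analysed here, since no listed probe set carried its symbol. Intensities are in arbitrary units. The floor is the median intensity of each array, 51.8 on the array labelled RUNX2 and 55.3 on the empty vector array, and probe sets over it on 1 array or both are called measured. Of the 28 probe sets, 14 exceeded it on both arrays and 14 on neither. With RNA from whole cultures, fewer cells expressing a gene and less of its RNA per cell cannot be told apart.

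**Figure D1:**
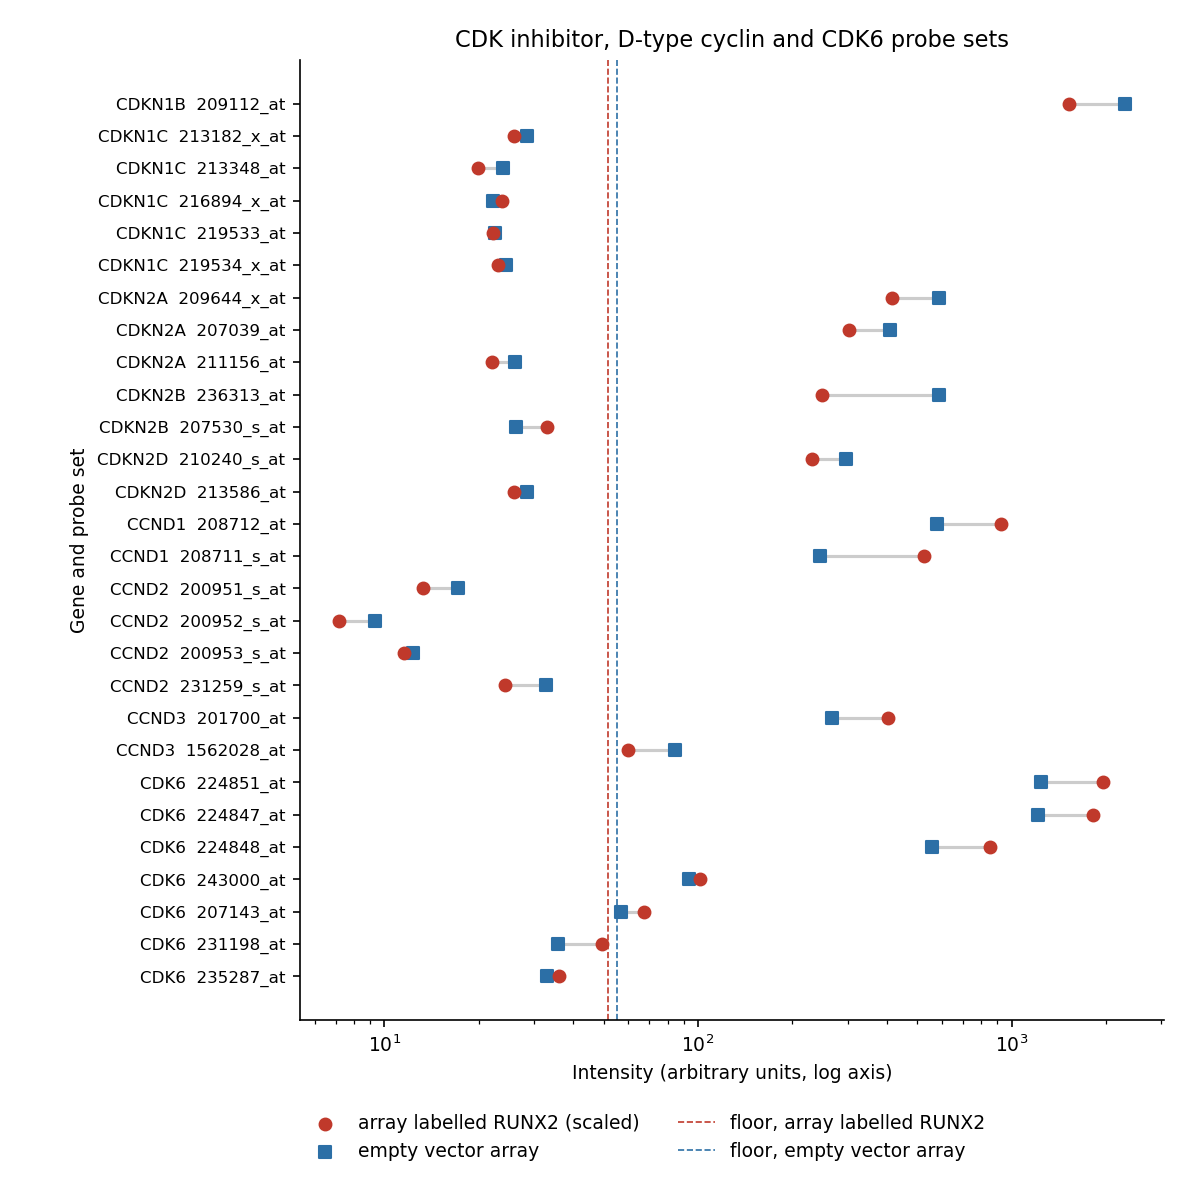
Intensity of all 28 probe sets (one row each, gene and probe set named) on the array labelled RUNX2, scaled (red circles), and on the empty vector array (blue squares), on a log axis in arbitrary units, with the floor of each array as a dashed line. Each symbol is 1 array. The 14 probe sets right of the floors include the brightest of CDKN1B, CDKN2B, CCND1 and CDK6, while all probe sets of CDKN1C and CCND2 lie left of them.

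The transduced gene was read first. RUNX2 had 6 probe sets, of which 3 exceeded the floor. Probe set 216994_s_at read 854 in the array labelled RUNX2, against 204 in the empty vector array, and 221282_x_at read 353 against 102 in the same order. Probe set 232231_at ran the other way, at 433 in the array labelled RUNX2 and 1746 in the empty vector array, 4.03-fold lower. It is the brightest of the 6 by mean log2 intensity. By the brightest probe set rule used here, RUNX2 itself is therefore counted among the genes at least 2-fold lower. The other 3, 221283_at, 236858_s_at and 236859_at, were below the floor on both arrays. The measured probe sets of the transduced gene thus did not go the same way, and every direction given here rests on the labels. All 7 epithelial markers with a probe set of their own, among them KRT5, CDH1 and DSG3, exceeded the floor on both arrays. Their summed intensity was 38395 in the array labelled RUNX2 and 31016 in the empty vector array. Of these, KRT14 (1579 in the array labelled RUNX2, 586 in the empty vector array) and ITGB4 (1481 and 581 in the same order) were more than 2-fold higher. EPCAM ran the other way, at 2666 in the array labelled RUNX2 and 4930 in the empty vector array, 1.85-fold lower. By brightest probe set, 5 of the 7 markers lay above 0 and 2 below, against 42.7% and 57.3% of all measured genes. PTPRC, CD3E and CD14 (leukocytes), CDH5, KDR and TEK (endothelium), and COL1A2, COL3A1, PDGFRB, DCN and LUM (fibroblasts) were below the floor on both. The endothelial markers PECAM1 and VWF lay just over it on both arrays in their brightest probe sets. PECAM1 read 55.5 in the array labelled RUNX2 and 69.4 in the empty vector array, and only 1 of its 5 probe sets was measured. VWF read 55.2 in the array labelled RUNX2, 1.36-fold lower. VIM and ITGAM were over it in the empty vector array alone, at 43.9 and 43.4 in the array labelled RUNX2 and 92.4 and 60.0 in the empty vector array. The summed intensity of 5 leukocyte markers was 1172 in the array labelled RUNX2 and 904 in the empty vector array, most of it in LCP1, of 5 endothelial markers 135 and 170, and of 7 fibroblast markers 1706 and 2137, most of the last in COL1A1. The part of these marker differences in the results below was not tested.

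The sequence around the start site is shown for 4 genes whose ratios the results turn on, the inhibitors CDKN2B, CDKN2A and CDKN1B and the kinase CDK6, because these genes differed in opposite directions. Each stretch runs from 250 bases before the annotated start to 50 bases from it on, on the gene's own strand, in RefSeq's GRCh38.p14 annotation. RefSeq stretches were found for 7 of the 10 genes, 13 stretches in all, since some genes have several starts. None was used for CCND1, CCND2 or CDKN1C, and 3 of the 13 belong to CDKN2C, which has no intensity here. For CDKN2A the start of the p16INK4a transcript is shown, not that of the upstream transcript for p14ARF. Capitals mark GGGCGG, the GC box bound by SP1, and TAAACA, the core of a FOXO site, on either strand.
CDKN2B, chr9:22009256-22009555, minus strand: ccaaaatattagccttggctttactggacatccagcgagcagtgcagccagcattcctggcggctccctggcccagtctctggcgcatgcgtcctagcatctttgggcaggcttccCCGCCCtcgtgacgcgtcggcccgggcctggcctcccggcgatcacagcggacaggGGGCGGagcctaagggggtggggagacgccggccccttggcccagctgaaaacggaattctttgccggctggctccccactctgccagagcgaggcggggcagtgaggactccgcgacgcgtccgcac
CDKN2A, chr9:21974808-21975107, minus strand: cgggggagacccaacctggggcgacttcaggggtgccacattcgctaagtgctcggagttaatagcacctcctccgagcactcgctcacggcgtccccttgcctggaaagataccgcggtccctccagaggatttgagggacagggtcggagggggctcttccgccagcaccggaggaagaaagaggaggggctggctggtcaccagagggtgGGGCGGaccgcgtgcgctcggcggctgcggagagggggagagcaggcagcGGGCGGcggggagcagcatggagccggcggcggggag
CDKN1B, chr12:12717118-12717417, plus strand: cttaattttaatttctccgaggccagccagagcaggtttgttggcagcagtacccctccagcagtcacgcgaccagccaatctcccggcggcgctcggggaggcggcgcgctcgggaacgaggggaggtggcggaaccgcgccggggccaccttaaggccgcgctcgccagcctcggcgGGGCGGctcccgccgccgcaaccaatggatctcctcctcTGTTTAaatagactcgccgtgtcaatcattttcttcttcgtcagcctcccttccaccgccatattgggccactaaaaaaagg
CDK6, chr7:92836524-92836823, minus strand: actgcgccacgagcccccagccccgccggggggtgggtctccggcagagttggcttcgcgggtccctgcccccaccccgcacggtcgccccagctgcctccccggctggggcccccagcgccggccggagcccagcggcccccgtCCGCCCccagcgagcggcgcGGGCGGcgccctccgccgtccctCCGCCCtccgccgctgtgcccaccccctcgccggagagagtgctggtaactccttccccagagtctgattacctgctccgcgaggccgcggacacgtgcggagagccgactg

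The GC box was found in 9 of the 13 stretches (69.2%), against 45.0% of all 35116 stretches of this length in the table. In the stretches shown, CDKN2B held 2 copies, CDKN2A 2, CDKN1B 1 and CDK6 3. CDKN2A and CDK6 each have another stretch, not shown, with 0 copies. TAAACA was found in 3 of 13 stretches (23.1%), against 12.3% of all. One of these lies in CDKN1B, on the opposite strand, starting 32 bases before the start site. Another, in the most upstream stretch of CCND3, begins 1 base before the start. The remaining match lies in a stretch of CDKN2C, which has no intensity here. The runt-domain motif, searched as TGTGGT and TGCGGT on both strands, was found in 0 of 13 stretches, against 19.6% of all, and the E2F motif, searched as TTTGGCGC, TTTCCCGC, TTTCGCGC and TTTGCCGC, in 0 of 13, against 3.31%. Matches of different motifs did not overlap in the 4 stretches shown. These matches describe letters in short windows and say nothing of binding.

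CDKN2B encodes p15INK4b, an INK4 inhibitor known in epithelial cells as a target of TGF-beta signalling. Its probe set 236313_at read 249 in the array labelled RUNX2 and 585 in the empty vector array, 2.35-fold lower. The other probe set, 207530_s_at, lay below the floor on both arrays, at 33.0 in the array labelled RUNX2 and 26.3 in the empty vector array. The difference in CDKN2B therefore rests on 1 probe set, and the second gave no measured ratio. CDKN2B was the only one of the 7 measured genes at least 2-fold away from the empty vector array in its brightest probe set. Among all 12729 measured genes, 1.47% were lower by 2-fold or more and 1.42% higher. With both arrays scaled to equal medians instead, 230 genes passed 2-fold upward and 137 downward, against 181 and 187 here, so the balance of higher and lower calls rests on the scaling.

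CDKN2A, which lies beside CDKN2B, encodes p16INK4a and, in another reading frame, p14ARF, which stabilises p53. Probe set 209644_x_at read 416 in the array labelled RUNX2 and 587 in the empty vector array, 1.41-fold lower. Probe set 207039_at read 304 in the array labelled RUNX2 and 409 in the empty vector array, 1.34-fold lower. The third, 211156_at, was below the floor on both, at 22.0 and 26.2. Both measured probe sets of CDKN2A gave a small ratio in the same direction. The annotation does not say which of the transcripts each one reads. Since CDKN2A and CDKN2B have closely similar coding sequences, and a suffix _x_at marks probes that can match several transcripts, the ratio of 209644_x_at is the less certain of the pair.

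CDKN2D, which encodes p19INK4d, was measured in 210240_s_at, at 231 in the array labelled RUNX2 and 296 in the empty vector array, 1.28-fold lower. Its other probe set, 213586_at, read 26.0 in the array labelled RUNX2 and 28.4 in the empty vector array, below the floor. CDKN2D thus had the narrowest ratio of the measured inhibitors.

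CDKN1B encodes p27KIP1, the CIP/KIP inhibitor that accumulates in resting cells and is degraded as they enter S phase. Its single probe set, 209112_at, read 1519 in the array labelled RUNX2 and 2294 in the empty vector array, 1.51-fold lower. No second probe set was there to set beside it. CDKN1C encodes p57KIP2, an imprinted inhibitor best known from embryonic growth. Its 5 probe sets read 19.9 to 25.9 in the array labelled RUNX2 and 22.2 to 28.5 in the empty vector array. All of them were below the floor, so no ratio is given.

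CCND1 encodes cyclin D1, the D-type cyclin that growth factor signalling induces in most epithelial cells. Its brightest probe set, 208712_at, read 924 in the array labelled RUNX2 and 576 in the empty vector array, 1.60-fold higher. Its other listed probe set, 208711_s_at, read 525 in the array labelled RUNX2 and 245 in the empty vector array, 2.14-fold higher, with a log2 ratio of 1.10. Both probe sets of CCND1 were higher, one under and one past 2-fold. Of the 14 measured probe sets, 208711_s_at was the 1 at least 2-fold higher and 236313_at of CDKN2B the 1 at least 2-fold lower. Over all 23332 measured probe sets with 1 symbol, 1.64% were higher by 2-fold or more and 1.12% lower.

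CCND3 encodes cyclin D3, and its probe sets disagreed. Probe set 201700_at read 403 in the array labelled RUNX2 and 267 in the empty vector array, 1.51-fold higher. Probe set 1562028_at, close to the floor, read 59.8 in the array labelled RUNX2 and 84.4 in the empty vector array, 1.41-fold lower. Averaged over both probe sets, CCND3 had a log2 ratio of 0.05, so its place among the higher genes depends on the brighter probe set. CCND2, which encodes cyclin D2, had 4 probe sets, all below the floor, at 7.19 to 24.2 in the array labelled RUNX2 and 9.32 to 32.7 in the empty vector array.

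CDK6 is the kinase that the D-type cyclins activate beside CDK4. It had 7 probe sets, of which 5 were measured, and these 5 were all higher in the array labelled RUNX2. The brightest, 224851_at, read 1961 in the array labelled RUNX2 and 1245 in the empty vector array, 1.58-fold higher. Probe set 224847_at read 1815 and 224848_at read 851 in the array labelled RUNX2, against 1215 and 559 in the empty vector array, 1.49-fold and 1.52-fold higher. The 3 bright probe sets thus gave nearly one ratio, with log2 values from 0.58 to 0.66. The dimmer 207143_at and 243000_at had log2 ratios of 0.25 and 0.12, at intensities of 67.4 and 101 in the array labelled RUNX2, against 56.7 and 93.5 in the empty vector array. The remaining pair, 231198_at and 235287_at, stayed below the floor, at 49.5 and 36.2 in the array labelled RUNX2 and 35.7 and 33.0 in the empty vector array. Among the 10 genes, CDK6 has the most measured probe sets.

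**Figure D2:**
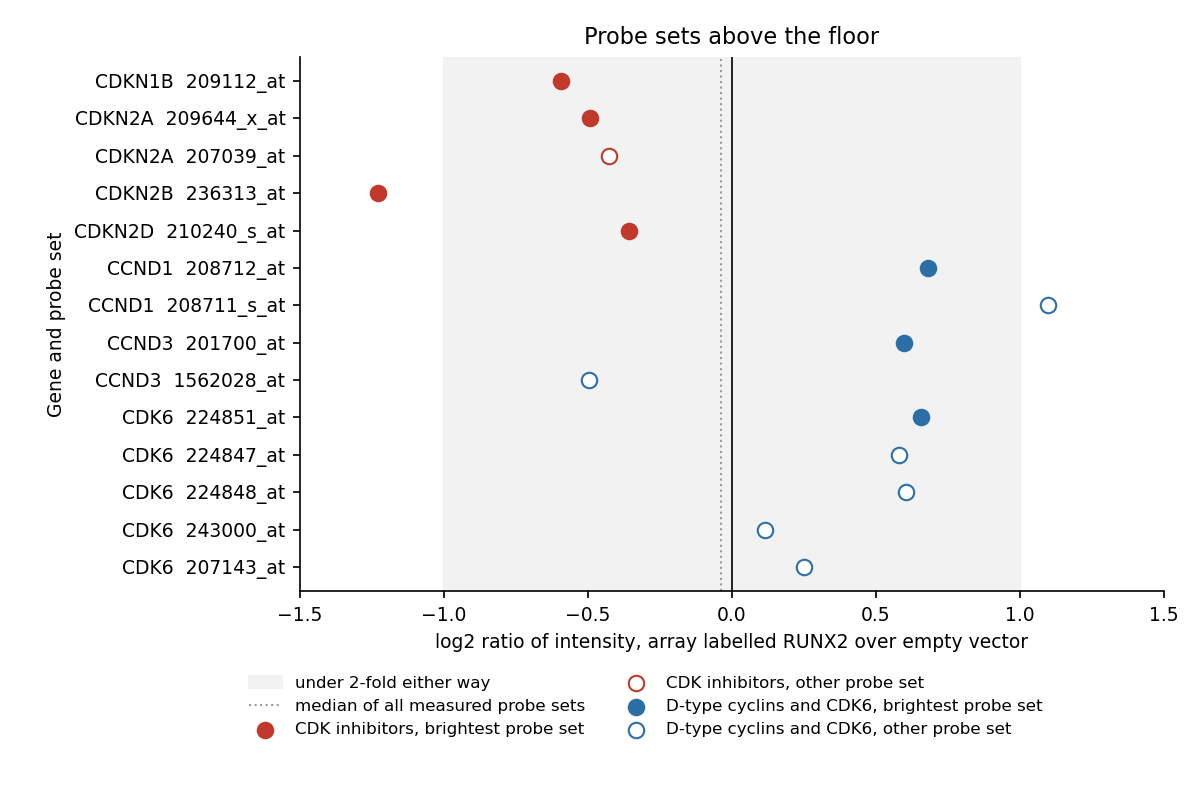
Log2 ratio of intensity, array labelled RUNX2 over empty vector, of the 14 measured probe sets, with CDK inhibitors in red and D-type cyclins and CDK6 in blue. Filled circles are each gene's brightest probe set and open circles its others; the grey band spans ratios under 2-fold. All 5 inhibitor probe sets lie between -1.23 and -0.36, and 8 of the 9 others lie above 0, with 1562028_at of CCND3 at -0.50.

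By probe set, all 5 measured for inhibitors lay below 0, with a median log2 ratio of -0.49, and 8 of the 9 for the cyclins and CDK6 lay above 0, with a median of 0.60. The groups overlapped in 1 probe set, 1562028_at. Over all 23332 measured probe sets with 1 symbol, 45.7% lay above 0 and 54.3% below. By gene, the medians were -0.54 over 4 inhibitors and 0.66 over CCND1, CCND3 and CDK6, while all 12729 measured genes had a median of -0.06 and 42.7% of them lay above 0. At 1.5-fold, CDKN2B and CDKN1B were lower and CCND1, CCND3 and CDK6 were higher by brightest probe set, 5 of the 7 measured genes. CDKN1B and CCND3, each at 1.51-fold, lay close to this cutoff. Over all measured genes, 6.88% were lower by 1.5-fold or more and 5.77% higher. By probe set, 2 of 14 were lower by this much and 5 of 14 higher, against 6.09% and 7.08% of all measured probe sets. The same contrast was known when the 10 genes were put together, so nothing is read from these shares. Probe sets of the same gene had log2 ratios with a pooled SD of 0.293 over 6165 genes. This is a spread between probe sets, whatever its source, and no replicate error.

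The ratio of each of the 7 measured genes, by brightest probe set, was set beside those of other genes. This is a description and no test, since the ratios were known when the genes were chosen. Other genes at least as low as CDKN2B numbered 87. Probe set 208711_s_at of CCND1, at 1.10, was not ranked, since it is not the brightest of its gene. Of the 12728 other measured genes, 0.684% had a ratio at least as low as that of CDKN2B, 6.59% as that of CDKN1B, 10.1% as that of CDKN2A and 18.1% as that of CDKN2D. Ratios at least as high as those of CCND1, CDK6 and CCND3 were found in 4.11%, 4.44% and 5.49% of the others. Among the 1000 genes nearest in mean intensity, the shares were 0.6% for CDKN2B, 5.3% for CDKN1B, 11.3% for CDKN2A, 21.0% for CDKN2D, 4.3% for CCND1, 4.9% for CDK6 and 6.9% for CCND3.

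**Figure D3:**
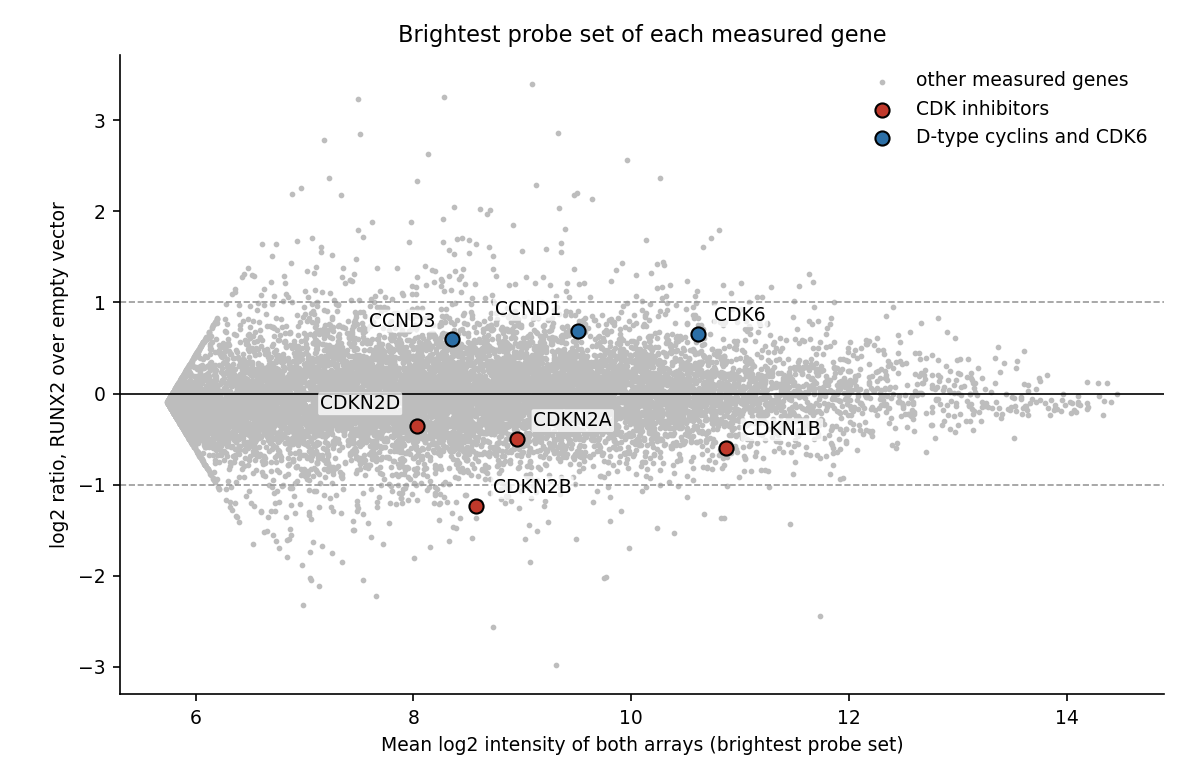
Log2 ratio, array labelled RUNX2 over empty vector, against mean log2 intensity of both arrays for each of 12729 measured genes by its brightest probe set (grey), with the 4 measured CDK inhibitors in red and CCND1, CCND3 and CDK6 in blue; dashed lines mark 2-fold. CDKN2B, at -1.23, is the named gene outside the dashed lines, where grey points lie as well, and the other 6 lie between the lines.

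The partners of these genes in G1 did not share one direction. Of 57 other G1 genes in 4 lists, 53 were measured, with a median log2 ratio of 0.09, 31 above 0 and 22 below. Over all measured genes, 42.7% lay above 0 and 57.3% below. Of the 53, 1 gene was 2-fold or more higher and 2 were lower by as much, against 1.42% and 1.47% of all. Among other cyclins, CDKs and inhibitors, 9 of 12 lay above 0 and the median was 0.28. CCNE2, a cyclin that activates CDK2 at the G1/S transition, had the widest ratio, at 378 in the array labelled RUNX2 and 103 in the empty vector array, 3.69-fold higher. Its second probe set, 211814_s_at, lay over the floor on the array labelled RUNX2 alone, so that its log2 ratio of 0.45 is a lower bound. CDK4, the other kinase that D-type cyclins activate, read 1300 in the array labelled RUNX2 and 1015 in the empty vector array, a log2 ratio of 0.36. CDK2, the target of cyclin E, gave 0.51 and 0.47 on the log2 scale. CDKN1A, which encodes the p53-induced inhibitor p21CIP1, read 1596 in the array labelled RUNX2 and 1297 in the empty vector array. Its log2 ratio of 0.30 differed in sign from those of the 4 measured inhibitors described above.

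Among pocket proteins and E2F factors, 7 of 13 lay above 0, against 42.7% of all measured genes, and the median was 0.09. RBL2, the retinoblastoma relative p130 that holds resting cells out of the cycle, read 867 in the array labelled RUNX2 and 1741 in the empty vector array, 2.01-fold lower, and its dimmer probe set gave -0.45 on the log2 scale. Its relative RBL1, p107, had a log2 ratio of 0.66 and RB1 one of 0.14. E2F3, an activator of replication genes, had 0.84 and 0.62 in its pair of probe sets. E2F1 had -0.02 and -0.33. By brightest probe set, E2F4, E2F5 and E2F8 had -0.17, -0.36 and -0.15, and E2F2, E2F6 and E2F7 had 0.21, 0.09 and 0.11. Proteins that act on the stability or assembly of p27KIP1 and the D-type cyclins had a median of 0.06 over 12 genes, 7 above 0, and none passed 2-fold. The widest in this list were FBXO4, part of a ubiquitin ligase reported to act on cyclin D1, at -0.57, and the kinase chaperone CDC37 at 0.48. SKP2, which marks p27KIP1 for degradation, had 0.11 in its brightest probe set and -0.18 in another.

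Regulators of transcription of the inhibitors had a median of 0.00 over 16 measured genes, with 8 above and 8 below 0. SMAD3, which carries the TGF-beta signal to CDKN2B, read 614 in the array labelled RUNX2 and 1501 in the empty vector array, 2.45-fold lower, and its other 3 measured probe sets had log2 ratios of -0.70, -0.45 and a bound of -0.30. SMAD2 had 0.23 in its brightest probe set, with values on both sides of 0 among the others. SMAD4 had 0.10 in its brightest probe set and -0.51 and -0.21 in the other measured ones. FOXO3, a forkhead factor that induces CDKN1B, was lower in all 4 of its probe sets, with log2 ratios from -0.63 to -0.26, and FOXO1 had -0.54 and -0.44. SP1, which binds the GC box, had -0.69 and -0.68. MYC, a repressor of CDKN2B through ZBTB17, had -0.47, and ZBTB17 itself 0.02. CBX7, a Polycomb repressor of CDKN2A, had -0.76, and the Polycomb methyltransferase EZH2 had 0.40. The other measured regulators of this list lay on both sides of 0. ETS1 had 0.32 in its brightest probe set and a bound of 0.75 in another, and ID1 had 0.28. SUZ12 had 0.27 in its brightest probe set and -0.30 in another. By brightest probe set, EED had 0.14, RING1 -0.01 and ETS2 -0.02. Whether any of these differences bears on the inhibitors was not tested.

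**Figure D4:**
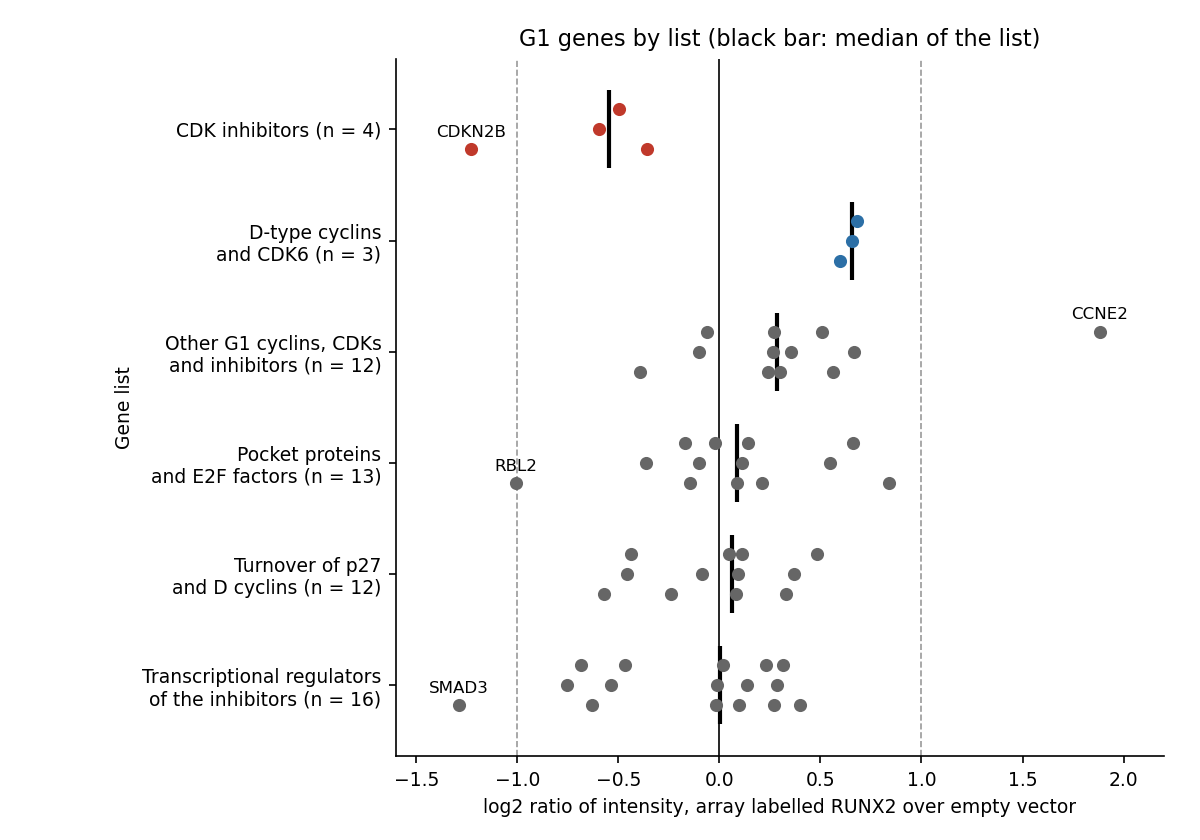
Log2 ratio, array labelled RUNX2 over empty vector, of each measured gene (1 point per gene, brightest probe set) in the CDK inhibitors (red), the D-type cyclins with CDK6 (blue) and 4 lists of other G1 genes (grey); the black bar is the median of the list and dashed lines mark 2-fold. The medians are -0.54, 0.66, 0.28, 0.09, 0.06 and 0.00 from top to bottom, and CDKN2B, CCNE2, RBL2 and SMAD3 lie past 2-fold.

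Genes near CDKN2A, CDKN2B and CCND1 on the chromosome were read as well. Of 13 such genes 8 were measured, 7 above 0 and 1 below, with a median log2 ratio of 0.21. Over all measured genes, 42.7% lay above 0 and 57.3% below. MTAP, the methionine salvage enzyme gene beside CDKN2A, was higher in all 4 of its measured probe sets, with log2 ratios from 0.39 to 1.12, opposite in sign to both inhibitors. Its brightest probe set read 320 in the array labelled RUNX2 and 244 in the empty vector array. The antisense RNA CDKN2B-AS1 was below the floor, at 6.41 in the array labelled RUNX2 and 7.35 in the empty vector array. MYEOV, the coding gene next to CCND1, was the 1 below 0, at -0.02. Further from CCND1, the chloride channel gene ANO1 had a log2 ratio of 0.91, at 203 in the array labelled RUNX2 and 108 in the empty vector array, and 0.24 in its other probe set. LTO1, 2 coding genes from CCND1, had 0.50. FADD, CTTN and PPFIA1, a little further along, had 0.22, 0.20 and 0.16 in their brightest probe sets, though CTTN ran down to -0.95 in another. TPCN2 had 0.16 in its brightest probe set and ran from -0.75 to 0.87 over 5. FGF3, FGF4, FGF19 and DMRTA1 were below the floor on both arrays. Copy number was not measured.

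**Figure D5:**
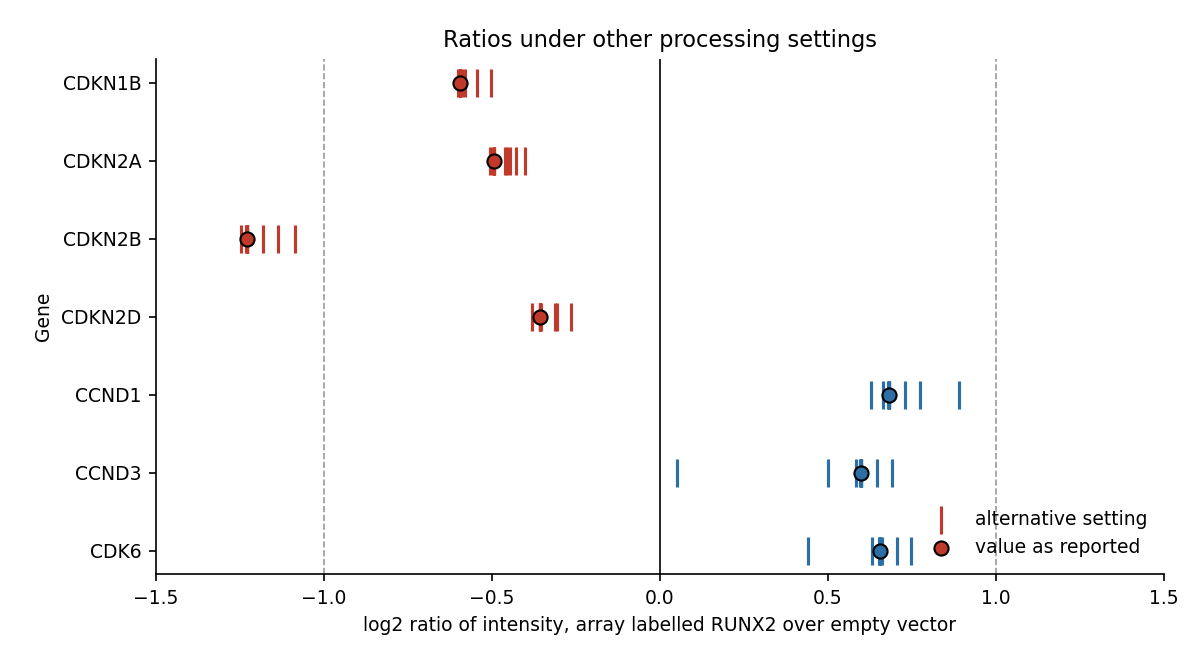
Log2 ratio, array labelled RUNX2 over empty vector, of the 7 measured genes as reported (circles) and under each other scaling, floor or probe set rule tried (ticks); inhibitors are red, cyclins and CDK6 blue, and dashed lines mark 2-fold. Each gene stays on its own side of 0, CDKN2B runs from -1.25 to -1.09, and CCND3 reaches down to 0.05 when its probe sets are averaged.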

How the data were processed

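Total RNA of both cell populations was labelled with biotin as cRNA and hybridised to Affymetrix human arrays, per the labels' protocols. The table the authors deposited holds an unlogged intensity for each of 54675 probe sets in both samples. MAS5 is named in the submitters' processing notes, and its scaling is not given in the sources used here. No detection call or scan entered the work. Titles gave the groups.

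After removal of 62 control probe sets, a factor of 0.966 on the array labelled RUNX2 made the 2% trimmed means equal, and values below each array's median were raised to it. A ratio with 1 array below that floor is a bound. Gene names came from the platform's annotation, with symbols updated by Entrez ID through RefSeq (GRCh38.p14): a single symbol was given for 41091 of the remaining probe sets and several for 1801, which name no gene here, and 11721 are unnamed. Each gene was read from its brightest measured probe set by mean log2 intensity. With 1 array per group, no test was made and no p-value is given. A threshold of 2-fold was used for counts.

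The genes, the lists and the thresholds were chosen with earlier results of these data known. Named were all probe sets of the 10 genes and of RUNX2, and from each other list the genes past 2-fold or otherwise the widest pair. Other genes (CDK4, CDK2, CDKN1A, RBL1, RB1, the E2F genes, SKP2, SMAD2, SMAD4, FOXO1, FOXO3, SP1, MYC, ZBTB17, CBX7, EZH2, ETS1, ETS2, ID1, SUZ12, EED, RING1, MTAP, CDKN2B-AS1, FADD, CTTN, PPFIA1, MYEOV, TPCN2, DMRTA1 and the FGF genes) and the markers were named after their values were seen. Scaling, floor, probe set rule and threshold were varied. The scripts (Python 3.11.15, numpy 2.4.6, pandas 2.3.3, statsmodels 0.14.6) were tested on simulated data.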

Additional observations from a re-analysis of the deposited data

How the results depend on the processing

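Other scalings (deposited values, equal medians, quantile, loess on intensity with span 0.4), other floors (25th percentile, 75th percentile, no floor, an offset in place of a floor), the mean over probe sets and leaving out probe sets ending in _x_at or _s_at were tried. In every one that gave a value, the 7 measured genes kept the sign of their ratio, and CDKN2B stayed past 2-fold, from -1.25 to -1.09. CDKN2D had no value without _x_at and _s_at probe sets. That setting also put the median of the 6 genes left at 0.085, against -0.36 for all 7, by its construction. The count of probe sets at least 2-fold higher went to 0, against 1, with an offset and without _x_at and _s_at probe sets. At 1.5-fold the counts were 5 probe sets higher and 2 lower, and 3 genes higher and 2 lower. These gene counts rest on the setting. CDKN1B fell short of 1.5-fold with deposited values (-0.54), equal medians (-0.50) and, narrowly, an offset (-0.581). CCND3 fell short with an offset (0.50) and, narrowly, quantile scaling (0.582). With the mean over probe sets, CDK6 (0.44) and CCND3 fell short of it. At 4-fold all 4 counts were 0. With the floor at the 25th percentile, CDKN1C and CCND2 gained ratios of -0.14 and -0.44. Averaged over its probe sets, which differ in sign, CCND3 had 0.05 by construction. Over these settings the median of all measured genes ran from -0.10 to 0.03. Genes 2-fold higher and lower over the whole array numbered 181 and 187 as reported, 112 and 79 with the floor at the 75th percentile, and 115 and 91 with an offset.

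No paired analysis was possible because each group holds 1 array. Intensities near the floor limit what can be said of CDKN1C, CCND2, the second probe set of CDKN2B and the dimmer probe sets of CDK6, and without replicates no difference can be set against the spread between cultures.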
